A study of Homo sapiens with 4 samples.

Results

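The NDRG family (N-myc downstream-regulated genes) has 4 members in human, NDRG1, NDRG2, NDRG3 and NDRG4, and all 4 were found by gene symbol among the 16376 genes of the deposited expression table. The family was chosen by the values of NDRG1, which earlier work on these same libraries had already shown to be lower with fluoxetine, so the change of the 4 genes is described here and not tested. The libraries were from LASCPC-01, a human neuroendocrine prostate cancer (NEPC) cell line made by expressing NMYC together with activated AKT1, and all libraries share that origin and a genotype that the labels give as WT. There were 2 libraries of cells given PBS (PBS 1 and PBS 2) and 2 of cells given fluoxetine, a serotonin reuptake inhibitor used as an antidepressant (fluoxetine 1 and fluoxetine 2), all labelled day 3. The labels give no dose, the titles of the fluoxetine libraries carry the letters PP, and the text of the study describes a shorter treatment than day 3. Nothing in the labels says that the libraries of a group came from separate cultures, so p-values measure only the spread between these libraries, which may be technical.

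NDRG proteins share the fold of the alpha/beta hydrolases but lack the residues needed for hydrolase activity. NDRG1 is repressed by MYCN and MYC and is induced when oxygen is low, through hypoxia-inducible factors (HIF), and its protein is a substrate of the kinases SGK1 and GSK3. NDRG2 is another target of MYC repression, the NDRG3 protein is marked for degradation by the oxygen-sensing enzyme EGLN1 and is stabilised by lactate, and NDRG4 is best known from brain and heart.

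The values were FPKM, read counts scaled to gene length and to sequencing depth, a unit on which levels of different genes can be set side by side. They were exact multiples of what 1 read is worth in a gene, so the reads behind them could be solved for 99.5% of the genes above 0, at depths between 32873603 and 34831389 reads per library. Among markers of NEPC cells, NCAM1, ENO2 and INSM1 had a mean of at least 1 FPKM. CHGA, CHGB and NEUROD1 stayed under 0.1 in every library, and SYP lay between 0.142 and 0.629. MYCN and AKT1 also had a mean of at least 1 FPKM, but the line was made by expressing both, so their levels do not speak to cell identity. The 8 markers of blood, vessel and stromal cells summed to 11.1 and 11.6 FPKM with PBS and to 9.97 and 11.5 with fluoxetine. Of these, 3 had a mean of at least 1 FPKM and made up most of the sum. They were CD68, COL1A1 and ACTA2, with PBS means of 3.37, 2.64 and 5.10 FPKM. DES was at 0 in all 4 libraries. Fluoxetine 1 stood apart in how its values depended on gene length. Across genes, the deviation from the mean over libraries had a correlation of -0.28 with log2 length there, against 0.04 to 0.19 in the other 3.

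The paralogues differed widely in level. NDRG3 carried most of the family's FPKM, with 81.1% and 81.0% of the sum of the 4 genes in the PBS libraries, and it was above 87.5% and 87.9% of all listed genes there. NDRG1 followed with 12.9% and 13.6% of the sum, NDRG4 with 4.20% and 3.65%, and NDRG2 with 1.81% and 1.69%. The order NDRG3, NDRG1, NDRG4, NDRG2 held in each of the 4 libraries, and the ranges of neighbouring genes did not overlap within a group. With fluoxetine, the share of NDRG1 was 4.70% and 6.81%, and that of NDRG3 was 90.1% and 88.2%. The FPKM of the whole family summed to 41.4 and 42.6 with PBS and to 35.4 and 39.4 with fluoxetine. Without NDRG1, the sums were 36.0 and 36.8 with PBS and 33.7 and 36.7 with fluoxetine, so that the value of fluoxetine 2 then lay between those of the PBS libraries.

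**Figure D1:**
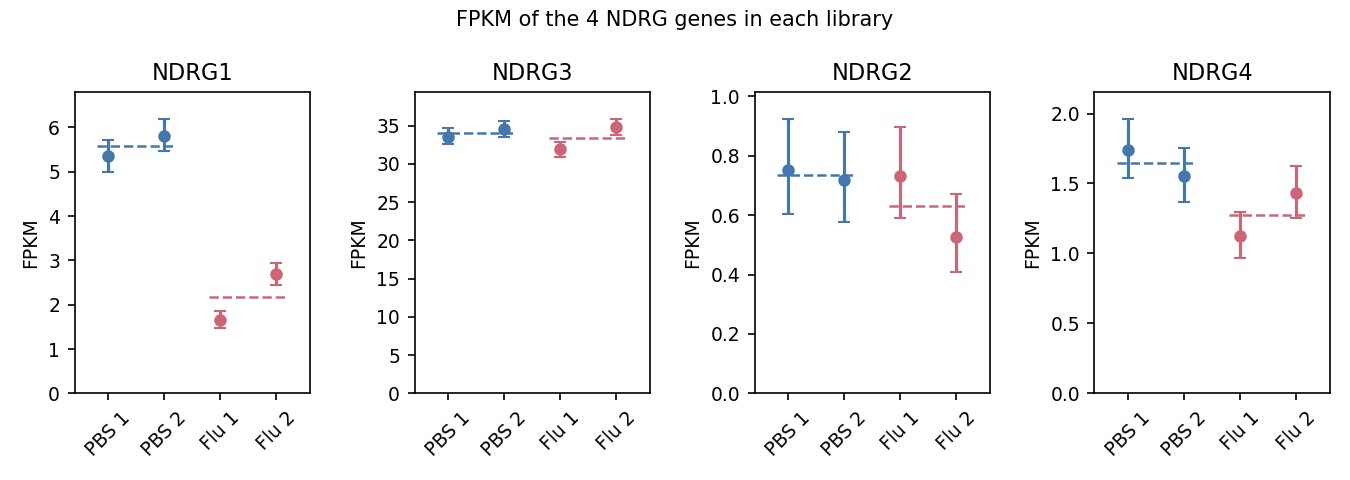
FPKM (y axis, from 0, on a scale of its own for each gene) of the 4 NDRG genes in the libraries PBS 1, PBS 2, fluoxetine 1 (Flu 1) and fluoxetine 2 (Flu 2). Points are libraries, bars are exact 95% Poisson intervals of the reads, and dashed lines are group means. NDRG1 fell from 5.58 to 2.17 FPKM in the mean with its groups far apart, and the groups of NDRG2 and NDRG3 overlapped.

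NDRG1 is annotated on chromosome 8 of GRCh38 from 133237171 to 133302022, on the minus strand, with 29 transcripts in GENCODE 29. PBS 1 had 5.35 FPKM from 875 reads and PBS 2 had 5.81 FPKM from 1005 reads. Fluoxetine 1 had 1.66 FPKM from 288 reads and fluoxetine 2 had 2.68 FPKM from 465 reads. Both fluoxetine libraries were thus well below both PBS libraries, and the exact 95% Poisson intervals of the reads, which cover counting error only, did not meet. The highest upper bound with fluoxetine was 2.94 FPKM, and the lowest lower bound with PBS was 5.0 FPKM. The PBS mean was 5.58 ± 0.327 FPKM (SD, n = 2) and the fluoxetine mean 2.17 ± 0.721 FPKM (SD, n = 2), 2.57-fold lower. The log2 fold change on the log2(FPKM + 0.1) scale was -1.36 with a standard error of 0.18. This error, like all standard errors given here, was moderated by limma with the variances of other genes. The replicate SD of NDRG1 itself on that scale was 0.33, which in this design is also its standard error without moderation. In bulk RNA, fewer cells that transcribe a gene and less of its RNA per cell cannot be told apart.

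The fluoxetine libraries also differed from each other in NDRG1, by 1.61-fold, whereas the PBS libraries differed by 1.09-fold. On the log2 scale the gap between the fluoxetine libraries was 0.66, and 63 of 10580 genes with a mean of at least 1 FPKM (0.595%) had a larger one, where the median gap was 0.10. The lower of the pair was fluoxetine 1, the library whose values fell with gene length, and the length behind the FPKM of NDRG1 was 4975 bases. With the length trend of each library removed, the log2 fold change was -1.32. Without fluoxetine 1 it was -1.03, and without fluoxetine 2 it was -1.69. Relative to NDRG3 in the same library, NDRG1 stood at 0.159 and 0.168 with PBS and at 0.0522 and 0.0772 with fluoxetine.

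NDRG3 is annotated on chromosome 20 from 36651766 to 36746078, on the minus strand, and was the family member with most reads, 16683 over the 4 libraries. It had 33.6 and 34.5 FPKM with PBS and 31.9 and 34.8 FPKM with fluoxetine. The lowest and the highest value were both from fluoxetine libraries, and the groups overlapped. The PBS mean was 34.0 ± 0.671 FPKM (SD, n = 2) and the fluoxetine mean 33.3 ± 2.03 FPKM (SD, n = 2). On the log2 scale the change was -0.03 (SE 0.08), and the sign turned to 0.03 without fluoxetine 1.

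NDRG2 is annotated on chromosome 14 from 21016763 to 21070872, on the minus strand, with 78 transcripts, the most of the family. It was the lowest member, with 0.751 and 0.718 FPKM in the PBS libraries, from 90 and 91 reads, and 0.733 and 0.527 FPKM in the fluoxetine libraries, from 93 and 67 reads. Fluoxetine 1 lay between the PBS libraries and fluoxetine 2 lay below them, but the counting intervals of all 4 libraries overlapped. The PBS mean was 0.734 ± 0.0232 FPKM (SD, n = 2) and the fluoxetine mean 0.630 ± 0.145 FPKM (SD, n = 2). The log2 fold change was -0.21 with a moderated standard error of 0.23 and a replicate SD of 0.21, so the difference was no larger than its error. It was -0.003 without fluoxetine 2 and -0.41 without fluoxetine 1. In GENCODE 29, exons of TPPP2 on the other strand share 236 bases with exons of NDRG2. Those of AL161668.4, also on the other strand, share 173 bases, and MIR6717, on the same strand, shares 73. Reads from bases shared with the other strand cannot be assigned where the counting did not use strand. For the bases shared with MIR6717, strand does not help. The length behind the FPKM of NDRG2 was 3647 bases, against 7550 exon bases in GENCODE 29. Whether the shared bases were counted is therefore not known. For the other NDRG genes the length also differed from GENCODE 29. The labels name a TruSeq kit that keeps the strand and the text of the study names another kit, VAHTS Universal, while the strand setting of the counting is not given in the sources used here.

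NDRG4 is annotated on chromosome 16 from 58462846 to 58513628, on the plus strand, with 55 transcripts. It had 1.74 and 1.55 FPKM with PBS, from 272 and 257 reads, and 1.12 and 1.43 FPKM with fluoxetine, from 186 and 237 reads. The fluoxetine values both lay below the PBS values, although the counting interval of fluoxetine 2, 1.25 to 1.62 FPKM, held the value of PBS 2. The PBS mean was 1.65 ± 0.131 FPKM (SD, n = 2) and the fluoxetine mean 1.28 ± 0.217 FPKM (SD, n = 2), 1.29-fold lower. The log2 fold change was -0.35 with a standard error of 0.18, and it ranged from -0.51 to -0.19 with 1 library left out. As for NDRG1, fluoxetine 1 was the lowest library.

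Across the table, 30 of 12663 genes tested with limma had an adjusted p under 0.05, that is 0.237%, and of the 4 NDRG genes NDRG1 was the 1 among them. NDRG1 was no longer among them without the filter on low values, with variances moderated without the trend, without PBS 1 or without PBS 2. The fluoxetine values both lay below the PBS values for 2 of the 4 NDRG genes and for 24.8% of all genes tested. As this is the contrast that brought the family up, nothing is read from these counts. The longest run of bases shared by the transcripts of any pair was 27 (NDRG2 and NDRG4). An exact read longer than that fits the transcripts of only 1 of the 4 genes. The read length is not given here.

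Promoter sequences from RefSeq (GRCh38.p14) are shown for NDRG2 and NDRG4, since the family is known through factors that bind at promoters. Those of NDRG1 and NDRG3 were not analysed here. HIF binds ACGTG or GCGTG, and MYC proteins bind CACGTG, which contains ACGTG. These letters were searched on both strands in windows from 250 bases before to 50 bases after each listed start. There were 5 windows for NDRG2 and 4 for NDRG4. GCGTG was found in 3 of the NDRG2 windows and in 1 of the NDRG4 windows, and ACGTG and CACGTG were found in none of the 9. The NDRG2 windows chr14:21025056-21025355 and chr14:21025012-21025311 overlap, and their match is the same GCGTG site. The matches in these overlapping windows are therefore not separate occurrences. The remaining NDRG2 window with a match, chr14:21070823-21071122, holds a different site, on the strand opposite to the gene. Of all 35116 windows searched, 36.5% held GCGTG, 21.4% held ACGTG and 7.3% held CACGTG. Below are the NDRG4 window with 4 matches (chr16:58463465-58463764, plus strand) and an NDRG2 window with 1 match (chr14:21025056-21025355, minus strand), each written 5′ to 3′ on the strand of the gene. Capitals mark GCGTG or its reverse complement CACGC.
NDRG4: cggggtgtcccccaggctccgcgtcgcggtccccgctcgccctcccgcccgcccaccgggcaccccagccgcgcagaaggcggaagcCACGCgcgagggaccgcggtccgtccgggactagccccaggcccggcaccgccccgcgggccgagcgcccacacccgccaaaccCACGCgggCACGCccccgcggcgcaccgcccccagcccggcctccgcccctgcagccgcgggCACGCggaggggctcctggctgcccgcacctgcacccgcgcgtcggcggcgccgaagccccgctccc
NDRG2: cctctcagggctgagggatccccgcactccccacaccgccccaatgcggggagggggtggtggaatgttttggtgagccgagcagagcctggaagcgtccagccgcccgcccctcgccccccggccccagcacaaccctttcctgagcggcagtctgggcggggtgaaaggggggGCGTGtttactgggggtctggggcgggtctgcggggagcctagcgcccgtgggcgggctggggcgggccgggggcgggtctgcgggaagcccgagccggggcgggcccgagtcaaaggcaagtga
The NDRG4 matches are all on the strand opposite to the gene, and the NDRG2 match shown is on the strand of the gene. A match is a description of the letters only.

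Genes around NDRG1 were then examined in 6 lists drawn up from general knowledge, with earlier results of these libraries known. They are described by counts and medians beside those of all genes tested, where the median log2 fold change was -0.02, the fluoxetine values both lay above the PBS values for 16.7%, and both were below for 24.8%. Without adjustment, 1078 of the 12663 genes (8.51%) had a p under 0.05 in limma, and limma voom on the recovered reads called 51 of 14043 genes (0.363%) after adjustment.

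Among hypoxia-induced genes, 15 of 20 had a negative and 5 a positive log2 fold change. Of these 20 genes other than NDRG1, all were tested, and 3 fell with an adjusted p under 0.05 while none rose. Before adjustment, 12 of the 20 were under 0.05. For 12 of the 20, the fluoxetine values both lay below the PBS values, and for 1 they were above. The median log2 fold change was -0.23. CA9, which encodes the surface carbonic anhydrase IX that handles acid outside the cell, had 1.30 and 1.92 FPKM with PBS and 0.242 and 0.390 FPKM with fluoxetine. The log2 difference was -2.04 (SE 0.26, limma adjusted p = 0.00704). BNIP3, which encodes a receptor for the removal of mitochondria, had 96.9 and 87.6 FPKM with PBS and 62.3 and 61.6 FPKM with fluoxetine. The log2 difference was -0.57 (SE 0.07, limma adjusted p = 0.00704). P4HA1, a subunit of the enzyme that hydroxylates prolines of collagen, had 19.5 and 19.3 FPKM with PBS and 13.7 and 12.6 FPKM with fluoxetine. The log2 difference was -0.56 (SE 0.08, limma adjusted p = 0.0170). In all 3 genes the groups did not overlap.

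ADM, which encodes the vessel-widening peptide adrenomedullin, and ANKRD37 did not pass the threshold, with log2 fold changes of -0.60 (adjusted p = 0.0511) and -0.75 (adjusted p = 0.276). ANKRD37 had 9.97 and 8.07 FPKM with PBS and 6.93 and 4.03 FPKM with fluoxetine. The 5 members of the list with a positive sign had log2 fold changes of at most 0.12. As for all genes tested, the number of list members with an adjusted p under 0.05 fell whichever library was left out. It was 0 without PBS 1 and 0 without PBS 2 (limma), 1 without fluoxetine 1 (ANKRD37) and 1 without fluoxetine 2 (CA9). At an unadjusted p under 0.05 there were 7 of the 20 without PBS 1, beside 9.18% of all genes, and 10 without PBS 2, beside 4.1% of all genes.

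The genes of the oxygen-sensing machinery themselves showed smaller differences. Of 10 genes, HIF3A was under the filter, and none of the other 9 had an adjusted p under 0.05 from limma, with 1 at an unadjusted p under 0.05, a share near the 8.51% of all genes. That gene was EGLN1, the prolyl hydroxylase that marks HIF for degradation, with 11.1 and 11.1 FPKM with PBS and 8.67 and 8.33 FPKM with fluoxetine. The log2 difference was -0.38 (SE 0.09, limma adjusted p = 0.187). With limma voom on the recovered reads, EGLN1 was the 1 member with an adjusted p under 0.05. HIF1A, the HIF subunit regulated by oxygen, had 33.0 and 34.9 FPKM with PBS and 31.5 and 30.5 FPKM with fluoxetine (log2 fold change -0.13, standard error 0.07). EPAS1 and ARNT, which encode another such subunit and the constant partner, overlapped between the groups, with log2 fold changes of -0.25 and -0.21. The median of the list was -0.07.

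MYCN, the repressor after which the family is named, was among the highest genes of the table. It had 369.7 and 386.5 FPKM with PBS and 323.1 and 363.6 FPKM with fluoxetine, and reads from the introduced and the native gene cannot be told apart in a single value per gene. The fluoxetine values both lay below the PBS values, but the log2 difference of -0.14 was within 2 standard errors of 0 (SE 0.09, limma adjusted p = 0.624). MYC was near the detection limit, with 0.263 and 0.191 FPKM with PBS and 0.108 and 0.140 FPKM with fluoxetine. Of the 13 MYC network genes, limma called none, with 0 under 0.05 before adjustment, nor did voom call any. The median log2 fold change was -0.09, and the largest values among genes of at least 1 FPKM were 0.24 for MXD3 and -0.20 for MNT, both antagonists that pair with MAX, and -0.17 for MGA.

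Other genes known to be repressed by MYC proteins gave no common direction. Of 12, CLU, NGFR and DKK1 were under the filter, and of the other 9, 5 had a negative and 4 a positive sign, with a median log2 fold change of -0.05. None passed the adjusted threshold of 0.05 in limma, 2 of the 9 were under 0.05 without adjustment, beside 8.51% of all genes, and voom called 1, TGM2, beside 0.363% of all genes. TGM2, a protein cross-linking enzyme named here after its values were seen, had 0.794 and 1.09 FPKM with PBS and 0.290 and 0.317 FPKM with fluoxetine. The log2 difference was -1.35 (SE 0.25, limma adjusted p = 0.0616). TXNIP, an inhibitor of thioredoxin, had 45.8 and 47.6 FPKM with PBS and 40.9 and 41.3 FPKM with fluoxetine (log2 fold change -0.18). DDIT3, a factor of the stress response, had a log2 fold change of -0.21, and GADD45A, a growth arrest gene, one of 0.09.

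The genes of the kinases upstream of the NDRG1 protein stayed close to their PBS levels. SGK2 is not among the genes analysed here and SGK3 was under the filter. SGK1 had 4.23 and 4.44 FPKM with PBS and 4.50 and 4.19 FPKM with fluoxetine, which gave a log2 difference of 0.002 (SE 0.11). Over the 8 genes tested, none had an adjusted or an unadjusted p under 0.05 from limma and voom called 0. The median log2 fold change was -0.01, with single values from -0.17 for GSK3B to 0.05, among them -0.11 for RICTOR, a subunit of the mTOR complex upstream of SGK1, and -0.07 for MTOR. RNA levels say nothing of kinase activity. Of 8 genes for proteins that NDRG1 binds or acts on in membrane recycling, Wnt signalling and folding, none had an adjusted or an unadjusted p under 0.05 (limma; voom called 0), and the median was 0.003. CDH1, which encodes E-cadherin, had 85.7 and 91.3 FPKM with PBS and 77.9 and 88.0 FPKM with fluoxetine, groups that overlapped. The largest values among genes of at least 1 FPKM were 0.20 for the chaperone gene HSPA8, -0.18 for the Wnt receptor gene LRP6 and -0.16 for RAB4A, a regulator of recycling endosomes.

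**Figure D2:**
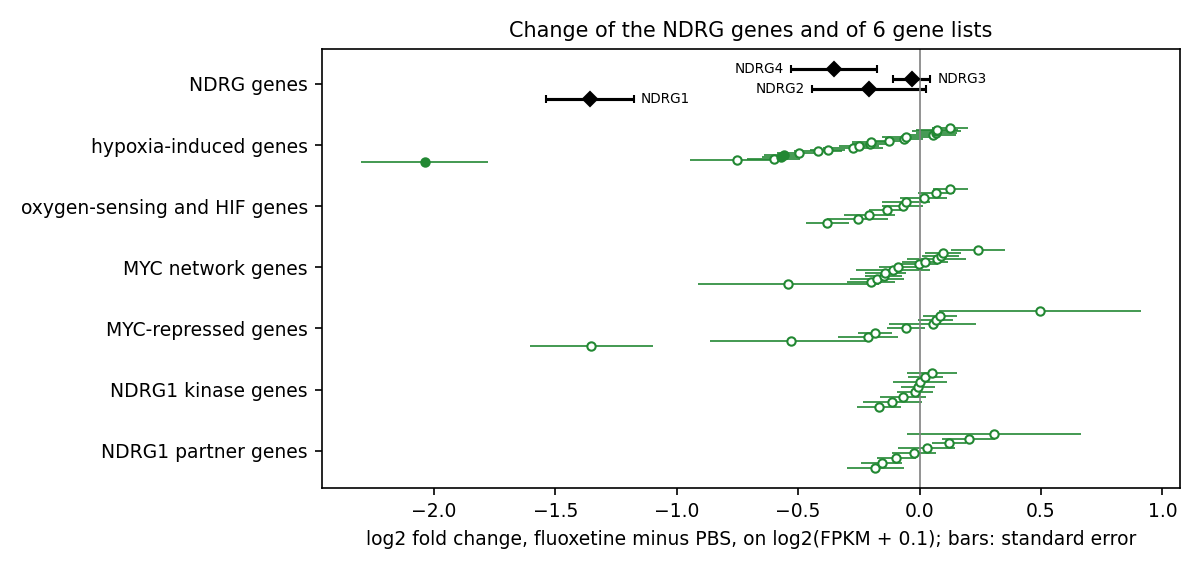
Log2 fold change of fluoxetine against PBS on the log2(FPKM + 0.1) scale (x axis, bars are moderated standard errors from limma) for the 4 NDRG genes (black) and the tested genes of 6 lists (green), 1 row per list. Filled green points have an adjusted p under 0.05 from limma, and all 3 of them are hypoxia-induced genes. NDRG1 lies at -1.36, away from NDRG4 at -0.35, NDRG2 at -0.21 and NDRG3 at -0.03.

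The genes most like NDRG1 over the 4 libraries were sought by the root mean square difference of log2(FPKM + 0.1) after centring each gene on its own mean, among 10579 other genes with a mean of at least 1 FPKM. With 4 libraries and the contrast included, the measure is a description. STC1, which encodes the secreted hormone stanniocalcin, was nearest at 0.06, with 1.68 and 2.02 FPKM with PBS and 0.475 and 0.824 FPKM with fluoxetine. GEM, a small GTPase gene, followed at 0.13, with 1.90 and 2.04 FPKM with PBS and 0.473 and 0.715 FPKM with fluoxetine. WNT10A, a Wnt ligand gene, stood at 0.21, SLC16A3, which encodes the lactate exporter MCT4, at 0.24, and DBH, the enzyme that makes noradrenaline, also at 0.24. In all 5, the groups did not overlap and fluoxetine 1 was the lowest library, as in NDRG1. The genes were picked by likeness to NDRG1, so these shared traits are not a separate result. NDRG4 was at 0.53, with 128 genes nearer to NDRG1, and NDRG3 at 0.69, with 3776 genes nearer.

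**Figure D3:**
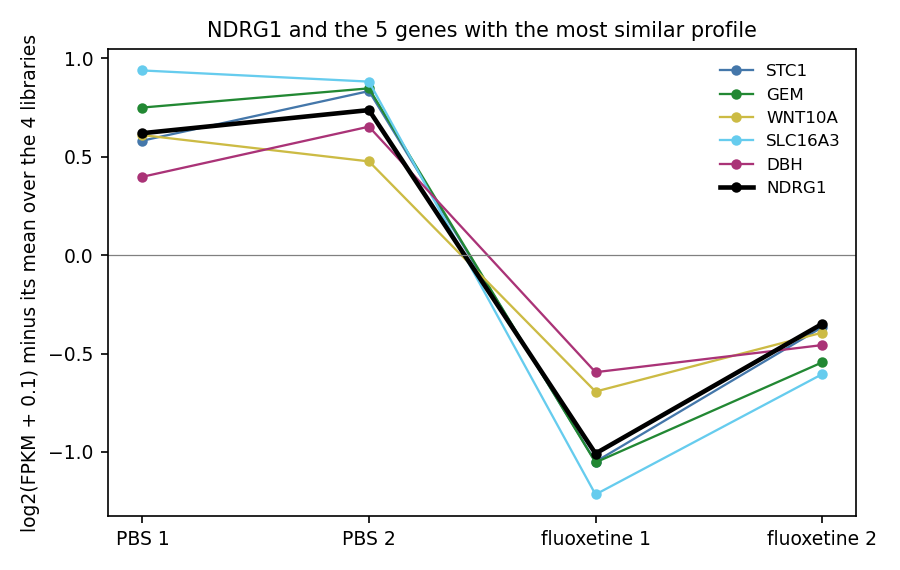
Centred log2(FPKM + 0.1) (y axis) in the 4 libraries (x axis) for NDRG1 (black) and the 5 genes with the smallest root mean square difference from it. Points are libraries, and the lines only guide the eye. STC1, at 0.06, follows NDRG1 most closely, including the gap between the fluoxetine libraries.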

How the data were processed

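RNA of 2 PBS and 2 fluoxetine libraries of LASCPC-01 cells was analysed from FPKM that the authors deposited, 1 column per library. The submitters' processing notes name fastp, HISAT2, HTSeq and GRCh38, without roles, and the study's text names DESeq2, which needs counts and was not used here. Reads were solved as the smallest whole numbers, within 0.004 of a read, that gave the FPKM ratios between libraries, and were scaled up where that was needed for a gene length in whole bases. The depth was the value shared by 123 genes when GENCODE 29 exon lengths were used. The test was limma 3.58.1 in R 4.3.3 with eBayes moderation that follows mean expression, applied to log2(FPKM + 0.1) of 12663 genes with a mean of at least 0.1 FPKM, with Benjamini-Hochberg adjustment. A fold change on this scale understates that of low genes. Standard errors are those after this moderation. The test and the recovery of reads were each tried on simulated data. For the test, these had the same added replicate spread in every gene and no length trend, unlike the libraries here. For the recovery, the true depth was supplied, so the step that found the depth was not tried. The smallest two-sided p of an exact permutation test in this design is 0.33. Python 3.11.15 served for other steps (scipy 1.17.1, pandas 2.3.3).

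The genes named were the 4 members, MYCN, MYC, HIF1A, SGK1, CDH1, list genes with an adjusted p under 0.05, the 3 largest changes of each list among genes with a mean of at least 1 FPKM, the 5 genes most like NDRG1 and the nearest listed neighbours. The members and lists were chosen with earlier results of these data known. Alternative settings included a pseudocount of 1 or 0.01, dropping the filter or raising it to 1 FPKM, TPM, quantile normalization, median centring, eBayes without trend or robust, the replicate block, removal of the length trend (lowess, span 0.3), voom on genes with at least 10 reads, and each library left out. Some marker genes are not reported here.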

Additional observations from a re-analysis of the deposited data

How the results depend on the processing

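Under 17 alternatives the log2 fold change of NDRG1 ranged from -1.69 to -1.03 and that of NDRG4 from -0.51 to -0.19, and both kept their sign. NDRG2 ranged from -0.41 to -0.003 (16 alternatives, since it is below a minimum of 1 FPKM), and NDRG3 from -0.09 to 0.03. The 30 genes with an adjusted p under 0.05 became 0 without the filter (1175 unadjusted) and 0 without the variance trend (933 unadjusted), 16 with quantile normalization and 51 with voom. They were 2 to 12 with 1 library left out, where the lone library of a group was assumed to vary like the other group. The hypoxia list, 3 at first, had 0 without the filter and 0 without the trend (9 and 7 members unadjusted), 5 at a minimum of 1 FPKM, 5 with TPM, 5 with voom and 0 to 1 with 1 library left out. MYC-repressed genes had 1 with robust moderation, 1 with the replicate block and 1 with voom, each time TGM2, and the oxygen-sensing genes 1 with voom. The causes were not tested.

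Deviations from the group mean correlated at 0.035 between libraries with equal numbers (2 pairs), at 0.058 among genes of at least 1 FPKM and at 0.101 among genes of at least 10 FPKM. The labels name no origin that equal numbers share, so they were not taken as pairs. With the replicate block, 64 genes and 7 hypoxia genes had an adjusted p under 0.05, and with the block and the length trend removed, a combination chosen after seeing the data, 5 hypoxia genes did. The NDRG2 values, at 67 to 93 reads a library, are those most limited by depth.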

Other observations

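The listed genes next to the NDRG genes on their chromosomes were also looked at. ST3GAL1, a sialyltransferase gene whose nearer end lies 152826 bases beyond NDRG1, had 1.22 and 1.25 FPKM with PBS and 0.842 and 0.997 FPKM with fluoxetine. The log2 difference was -0.40 (SE 0.19, limma adjusted p = 0.579). On the other side of NDRG1, TG was at or near 0 in all 4 libraries. SETD6, a methyltransferase gene 1851 bases from NDRG4, had 7.14 and 6.84 FPKM with PBS and 7.35 and 8.04 FPKM with fluoxetine, so its fluoxetine libraries were above its PBS libraries while those of NDRG4 were below. GINS3, on the other side, overlapped between the groups at a log2 fold change of 0.02. DSN1 and SLA2, on either side of NDRG3, and ZNF219, beside NDRG2, overlapped as well, with log2 fold changes of 0.03, -0.27 and -0.07. SLC39A2, on the other side of NDRG2, had at most 0.088 FPKM. The listed genes RNASE7 and ARHGEF40 lie nearer, since they overlap the span of NDRG2 on the other strand. RNASE7 had at most 0.169 FPKM. ARHGEF40 overlapped between the groups at a log2 fold change of -0.13.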
